A study of Mus musculus with 12 samples.

Results

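Old and young hair follicle stem cells (HFSCs) were compared 3 days after the hair had been plucked. The old sample came from mice of 22 months or more and the young sample from mice of 8 weeks, with 1 array on each side. These were 2 of the 12 arrays of a series on hair follicle ageing and COL17A1. A second young sample, called the control, came from plucked HFSCs of 12-week-old mice given tamoxifen intraperitoneally, 2 mg on each of 5 days. All 3 samples were wild type and on the C57BL/6 strain, and hair was removed by hand. A plucked sample with a conditional knockout of Col17a1 driven from the K14 promoter had the same age and tamoxifen treatment as the control. It entered the choice of probe per gene and some alternative normalizations, and its values are given for a few genes. Per the labels, cells were sorted on high CD34, high ITGA6 and no SCA1 (the product of Ly6a), and total RNA was amplified before Cy3 labelling. The labels do not give the number of mice, or whether mice were pooled. A gene was kept when its probe was flagged well above background on the old or the young array, which held for 24105 of the 34607 gene names on the array. With 1 array per group every difference described here is between samples, with no replicate and no test.

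HFSCs rest in the bulge of the follicle for most of the hair cycle. Plucking removes the hair shaft, injures the follicle and calls the stem cells out of rest, so that bulge and hair germ cells divide and a new hair is started. Wnt and hedgehog signals favour that activation, and BMP signals hold the cells at rest. Injured keratinocytes switch on stress keratins and release cytokines and EGF-family ligands.

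Levels are log2 processed intensities relative to the 75th percentile of the array, so that 0 is that percentile, and they can be compared between arrays for 1 gene but not between genes. Of the spots other than controls, 59.18% were well above background on the old, 62.67% on the young and 64.23% on the control array. Spots of a probe printed at least 5 times differed by a median SD of 0.08 to 0.09 on the log2 scale, which measures the spread within an array only. The young array lay in row 1 and the old array in row 2 of the same slide, so that slide row and age cannot be told apart between them. The control array lay in row 2 of another slide, so that old and control share the row and differ in slide.

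At least 2-fold differences were found in 2387 genes higher in old (9.9% of the 24105 kept) and in 2428 genes lower in old (10.1%). Against the control, 3621 of 24763 genes were at least 2-fold higher in old (14.6%) and 3265 at least 2-fold lower (13.2%). The young references themselves lay as far apart, with 2577 of 25007 genes at least 2-fold higher in the control than in the young array (10.3%) and 3102 lower (12.4%). The SD of the log2 difference over genes well above background on both arrays was 0.70 for old minus young, 0.88 for old minus control and 0.76 for control minus young. Counts over all genes therefore did not set the old array further from the young array than the young references lay from each other. Both comparisons of the old array share that array, so an error of it would appear in both.

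A gene was called beyond both references when the old level was at least 2-fold above the higher, or below the lower, of the young and control levels. This held for 1509 genes higher in old (5.9% of the 25556 genes well above background on any of the 3 arrays) and 946 lower (3.7%). Where the dimmer side was not well above background, its level is only a bound, taken per array as the larger of the measured level and the lowest level well above background; the fold is then written as at least N-fold. With all such sides set to their bounds, 1486 and 654 genes were beyond both references. The median difference of all genes kept was 0.03 on the log2 scale, with an interquartile range from -0.45 to 0.47. Differences were more frequent among dim genes than among bright ones. The genes well above background on all 3 arrays were divided by level into 4 bins of equal size. In the dimmest bin 11.83% stood at least 2-fold above young and 6.85% as far below, and in the brightest bin 2.04% and 2.94%.

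**Figure D1:**
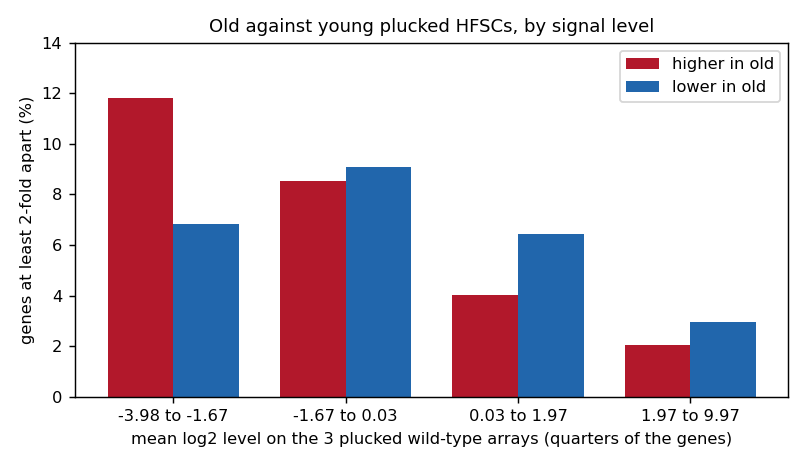
Share of genes (percent, vertical axis) at least 2-fold higher (red) or lower (blue) in old than in young plucked HFSCs, in 4 equal bins of the genes by their mean log2 level on the 3 wild-type plucked arrays (horizontal axis). Both shares are smallest in the brightest bin (2.04% higher and 2.94% lower), and the share higher in old is largest in the dimmest bin (11.83%).

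The sorted cells carried the markers of the gate on all 3 arrays. Cd34, the bulge surface marker, read 3.93 on the old, 3.62 on the young and 4.39 on the control array. Itga6, the integrin used in the sort, read 4.25, 4.19 and 4.49, and the basal keratins Krt14 (8.62, 7.94 and 8.49) and Krt5 (8.39, 8.19 and 8.40) were among the bright genes throughout. Ly6a, which the gate selects against, read -1.42 on the old, -2.05 on the young and -2.95 on the control array, against 3.69 and 4.37 on the arrays of old and young interfollicular epidermis (IFE), the SCA1-positive epidermis between the follicles. None of these genes was 2-fold apart between old and young. Col17a1, the hemidesmosomal collagen that the series is about, read 6.19 on the old, 5.67 on the young and 6.22 on the control array, so the old level was 1.44-fold above the young level and 1.02-fold below the control level.

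Genes of cell division stood lower in the old plucked HFSCs. All 42 mitosis genes listed (kinases, kinetochore proteins, spindle motors and regulators of cytokinesis) were kept, and 39 read lower in old than in young, with a median difference of -0.83 (-0.82 with dim members at their bounds) beside 0.03 over all genes kept. Of these, 16 were at least 2-fold lower in old than in young and none at least 2-fold higher, beside 10.1% and 9.9% over all genes. At least 2-fold below both references were 12, beside 3.7% over all genes. The median against the control was -0.84, and the control differed from the young array by a median of 0.05 over the same list. The part of the cells that divide and the amount of these transcripts per dividing cell cannot be told apart in sorted bulk RNA.

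Many mitosis genes are known to share a promoter element near the start of the transcript, the cell cycle genes homology region (CHR), through which the DREAM and MuvB complexes act, and CCAAT boxes bound by NF-Y upstream of it. Promoters of Cenpf, Ttk and Ect2 are shown because these genes were beyond both references and hold both elements. With the first base of the transcript as 1, the CHR begins at 3 in Cenpf and 8 in Ttk, with their CCAAT boxes upstream, whereas in Ect2 it begins at -114, upstream of the CCAAT boxes at -96, -55 and 2. The sequences run from 150 bases before the start to 20 bases from it, on the strand of the gene, from RefSeq on GRCm38.p6, with CHR and CCAAT letters in capitals. The coordinates are chr1:189688067-189688236 on the minus strand for Cenpf, chr9:83834539-83834708 on the plus strand for Ttk, and chr3:27153859-27154028 on the minus strand for Ect2.
Cenpf: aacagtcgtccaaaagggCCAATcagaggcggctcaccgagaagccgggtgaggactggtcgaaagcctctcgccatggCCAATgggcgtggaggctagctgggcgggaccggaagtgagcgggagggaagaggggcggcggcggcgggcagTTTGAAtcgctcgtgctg
Ttk: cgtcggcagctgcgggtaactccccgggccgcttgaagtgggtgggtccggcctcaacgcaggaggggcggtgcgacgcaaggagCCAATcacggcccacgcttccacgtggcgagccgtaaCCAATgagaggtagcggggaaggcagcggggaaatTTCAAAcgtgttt
Ect2: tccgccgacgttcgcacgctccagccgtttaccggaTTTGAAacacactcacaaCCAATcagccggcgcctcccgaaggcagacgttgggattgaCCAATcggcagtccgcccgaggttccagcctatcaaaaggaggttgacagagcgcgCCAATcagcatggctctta

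The CHR was searched as TTTGAA or TTCGAA and the CCAAT box as CCAAT, on both strands, in the window from 250 bases before to 50 after the start. No matches of different motifs shared a base in the windows printed. Promoter sequence was found for 33 of the mitosis genes, and 25 of these held a CHR (75.8%), against 19.4% of all 27025 promoters. The CCAAT box was in 25 of the 33 mitosis promoters (75.8%) and in 37.9% of all. Of the 24 promoters of replication genes, 4 held a CHR (16.7%) and 17 a CCAAT box (70.8%), so the replication genes held the CCAAT box but not the CHR more often than all promoters did. Of the 16 promoters of repair genes, 3 held a CHR (18.8%) and 10 a CCAAT box (62.5%). These are matches of letters and describe the lists, which were chosen by function.

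Among the mitotic kinases, Ttk, the spindle checkpoint kinase whose promoter is printed above, read -1.73 on the old, -0.26 on the young and -0.01 on the control array, 2.76-fold below young and 3.28-fold below control. Aurkb, the kinase of the chromosomal passenger complex, read -3.11, -1.79 and -1.36, 2.50-fold and 3.37-fold lower. Melk, a kinase of proliferating progenitors, read -1.05, 0.55 and 0.41, 3.03-fold and 2.75-fold lower. In each case both young arrays lay more than 2-fold above the old one and closer to each other than to it. Aurka, the centrosome kinase, was 2.20-fold and 2.00-fold lower, Nek2, which separates centrosomes, 2.25-fold and 2.36-fold, and Pbk, another mitotic kinase, 2.28-fold and 2.09-fold.

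Of the kinetochore and cohesion genes, Sgo1, which protects centromeric cohesin, read 1.56 on the old, 2.96 on the young and 3.47 on the control array, 2.64-fold and 3.76-fold lower. Cenpe, the kinetochore motor, read 0.83, 2.01 and 2.10, and Nuf2, part of the microtubule-binding NDC80 complex, -0.86, 0.17 and 0.59. Old was the lowest of the 3 arrays for all 3 genes. Cenpf, a large kinetochore protein, was not well above background on the old array and was at least 3.07-fold below young (-2.11) and at least 2.17-fold below control (-2.61). Tpx2, which activates Aurora A at the spindle, was 2.48-fold below young and 3.20-fold below control, and Ect2, the exchange factor that starts cytokinesis, 2.21-fold and 2.84-fold.

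The exceptions were Kif2c, a microtubule-depolymerising kinesin (0.35 on the old and -0.35 on the young array), the cyclin Ccnb1 (2.68 and 2.43) and the checkpoint kinase Bub1 (1.06 and 0.89), all 3 less than 2-fold apart. For Kif2c another probe gave a difference of -1.53 against the 0.70 of the probe used, and for Ccnb1 the probes ranged from -0.78 to 0.26. Mki67, the proliferation antigen Ki-67, read 4.19 on the old, 5.10 on the young and 5.41 on the control array, 1.88-fold and 2.33-fold lower. It followed the direction of the list but did not reach 2-fold against young.

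Replication genes were lower by a smaller amount. Of the 29 genes of origin licensing and the fork, 27 read lower in old than in young, with a median of -0.67 (-0.75 against control). At least 2-fold lower were 6 and at least 2-fold higher none, beside 10.1% and 9.9% over all genes. The 3 beyond both references were Pole, Dtl and Uhrf1. Pole, the leading-strand polymerase, read -2.04 on the old, -0.38 on the young and -0.77 on the control array. Dtl, which directs degradation of licensing factors in S phase, read -0.78, 0.82 and 1.35, and Uhrf1, which brings DNA methylation to new strands, 4.67, 5.71 and 6.56. Old was the lowest array for each, by 3.16-fold, 3.04-fold and 2.06-fold against young. The licensing helicase subunit Mcm2 read -0.30, 0.42 and 0.70, 1.65-fold below young and 2.00-fold below control, and was not beyond both.

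The genes that lead into S phase were displaced less. Of 19 G1 cyclins, E2F factors and pocket proteins, 16 read lower, with a median of -0.43 (-0.33 at bounds, -0.57 against control). Of the 19, 3 were at least 2-fold lower, beside 10.1% over all genes. E2f8, a repressor E2F made in S phase, read -0.29 on the old, 1.53 on the young and 1.26 on the control array, 3.53-fold and 2.92-fold lower. Ccne2, a cyclin of S phase entry, was beyond both on measured values, but it was not well above background on the old array and its bound was 1.05-fold. Myc, a growth-promoting factor, read 1.19, 0.37 and 0.37, above both but by less than 2-fold. The CDK inhibitors, which stop the cycle, had no common direction, with 3 of the 6 kept higher and 3 lower (median -0.46, -0.75 against control). Cdkn2b (p15) read -1.27 on the old and -3.54 on the young array and was not well above background on the control, so it was 4.80-fold above young and at least 10.8-fold above control. Cdkn2c (p18) went the other way at 2.09, 3.23 and 4.65. Cdkn1b (p27) read 2.16, 3.14 and 3.99, 1.98-fold and 3.56-fold lower, and Cdkn1a (p21) 0.25, -0.19 and -0.25, less than 2-fold higher. Cdkn2a was well above background on the young array only.

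DNA repair genes that act at replication forks were lower as well. Of 22 homologous recombination, Fanconi and checkpoint genes kept, 18 read lower, with a median of -0.52 (-0.76 against control). At least 2-fold below young were 6 genes (10.1% over all genes), and the same 6 were beyond both (3.7% over all genes). Clspn, the checkpoint mediator claspin, read -1.83 on the old, -0.24 on the young and -0.45 on the control array, and Brca2, of homologous recombination, -1.79, -0.31 and -0.78. Neil3, a glycosylase of dividing cells, read -0.59, 1.14 and 0.88. These 3 lay 2.77-fold to 3.31-fold below young and 2.01-fold to 2.78-fold below control. Fanca, of the Fanconi core complex, Exo1, a resection nuclease, and Rad54l, which drives strand exchange, were 2.87-fold, 2.28-fold and 2.08-fold below young, Fanca by -2.11 on the log2 scale as the mean of its probes. Bard1, the partner of BRCA1 (0.04, -0.91 and -1.01), and Chek2, a checkpoint kinase (0.76, -0.14 and 0.64), read higher than young by less than 2-fold.

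Of 18 DNA methylation and Polycomb genes kept, 14 read lower than young and 4 higher, with a median of -0.42 (-0.75 against control). At least 2-fold lower were 4 and at least 2-fold higher 1, beside 10.1% and 9.9% over all genes. Dnmt1, which copies methylation to new DNA, read -0.48 on the old, 1.05 on the young and 1.14 on the control array, 2.88-fold and 3.07-fold lower. The de novo enzyme Dnmt3b read -2.77, -0.36 and -0.96, 5.31-fold and 3.51-fold lower, although its probes ranged from -2.41 to 0.38 and their mean was -1.15 on the log2 scale against young. Old was lowest for both genes, and Dnmt3a read 2.08, 1.97 and 2.14. The 3 genes beyond both were Dnmt1, Dnmt3b and Uhrf1, which also stands in the replication list. Cbx7, a Polycomb reader, was the gene at least 2-fold higher than young, and not beyond both. Ezh2, the Polycomb methyltransferase, read 0.13, 0.98 and 1.57, 1.80-fold and 2.70-fold lower. Clustered histone genes had a median of -0.40 over 45 kept. Of the 45, 7 were at least 2-fold lower and none at least 2-fold higher, beside 10.1% and 9.9% over all genes. H2ac1 and H3c8, a core H2A and a core H3 gene, were beyond both.

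**Figure D2:**
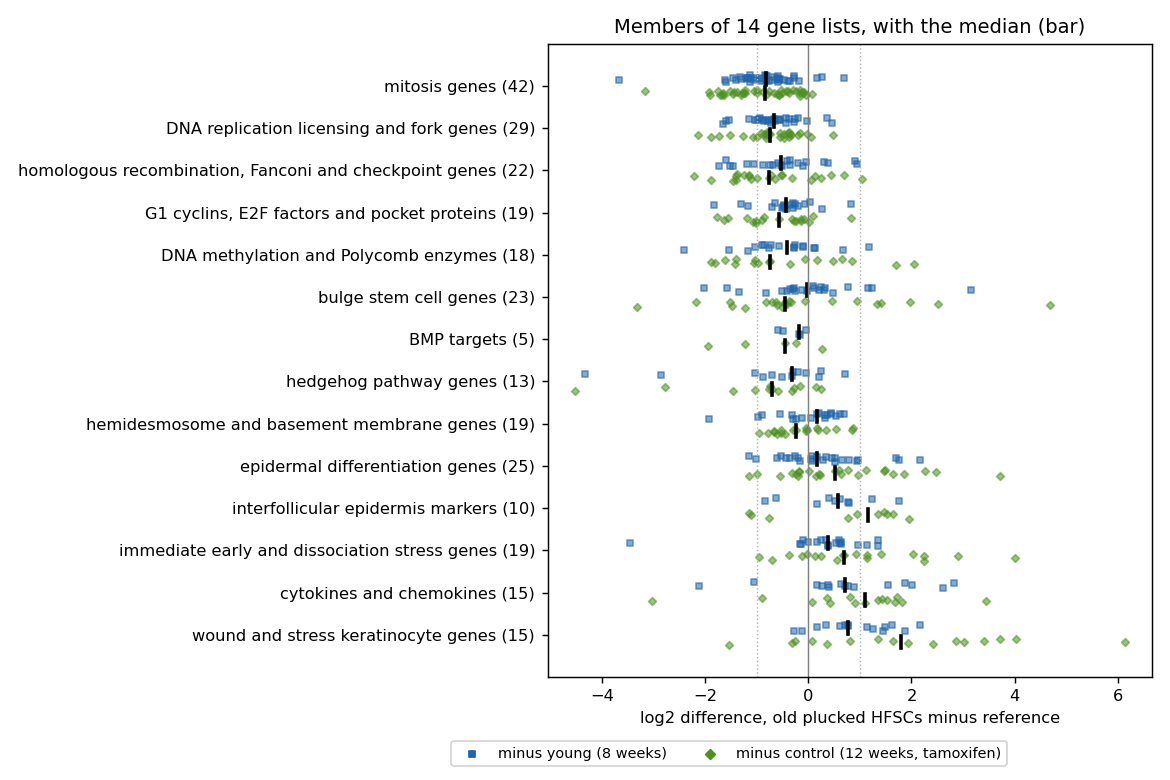
Log2 difference (horizontal axis) of old plucked HFSCs minus young (blue squares) and minus control (green diamonds) for every listed gene well above background on either array of that comparison, with the median as a bar and 2-fold as dotted lines; the number kept against young is in brackets, and dim members are drawn at their measured values. The lists of mitosis, replication and repair genes have medians of -0.83, -0.67 and -0.52 against young, and the wound and cytokine lists 0.77 and 0.72.

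Genes of wounded or stressed keratinocytes stood higher. Of 15 kept, 13 read higher in old than in young, with a median of 0.77 (1.79 against control). At least 2-fold higher were 7 and at least 2-fold lower none, beside 9.9% and 10.1% over all genes. The same 7 were beyond both references, beside 5.9% over all genes. Of the 15, 12 were well above background on both the old and the young array, with a median of 0.95. The others were so on the old array only, which partly fixes their direction. The control differed from the young array by a median of -0.57 over this list, with 5 genes at least 2-fold lower and 2 higher, so the choice of reference moves the size.

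Among the paired stress keratins, Krt6a read 2.44 on the old, 0.96 on the young and 0.02 on the control array, 2.79-fold and 5.36-fold higher. Krt6b read 4.74, 3.48 and 3.39, 2.40-fold and 2.54-fold higher. Their partner Krt16 read 2.12, 0.69 and -0.88, 2.71-fold and 8.04-fold higher. Old was the highest array for all 3. Krt17, another stress keratin, read 6.33, 6.46 and 6.64 and lay within 2-fold. Sprr1b, a small proline-rich protein of the cornified envelope made after injury, read 0.48, -1.68 and -3.23, 4.46-fold and 13.1-fold higher. S100a9, a calcium-binding alarmin, read -0.79 on the old and -2.42 on the young array, and was at least 15.1-fold above the control, where it was not well above background. Its partner S100a8 was not well above background on any of the 3 arrays. Itga5, the fibronectin receptor subunit of migrating keratinocytes, was well above background on the old array only (-2.55), at least 3.65-fold above young and at least 4.45-fold above control.

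Ligands of the EGF receptor read higher in part. Hbegf, heparin-binding EGF, read 0.39 on the old, -0.75 on the young and -1.25 on the control array, 2.20-fold and 3.12-fold higher. Epgn, epigen, was 4.67-fold above young but 1.62-fold above control. In this family 7 of the 8 genes kept read higher than young, with a median of 0.41 (0.69 against control). Over the members well above background on both the old and the young array (7) the median was 0.11. Over all genes well above background on both it was 0.06. The receptor Egfr was level at 3.82, 3.71 and 3.79.

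Of the 25 cytokines and chemokines listed, 15 were kept; 13 read higher and 2 lower in old than in young, with a median of 0.72 (1.09 against control). At least 2-fold below young were 2, Cxcl9 and Cxcl10, of which Cxcl10 was beyond both on measured values. At least 2-fold above young were 5, beside 9.9% higher and 10.1% lower over all genes. The same 5 were beyond both references (5.9% over all genes), 4 of them secreted attractants or growth factors and the other a receptor antagonist. Promoters of Cxcl1 and Il1rn, and of Sprr1b from the wound list, are shown because these 3 hold letters that match an NF-kappaB or AP-1 site near the start. The sequences have the same length and source as above, with NF-kappaB letters in capitals in Cxcl1 and AP-1 letters in the other two. The coordinates are chr5:90891095-90891264 on the plus strand for Cxcl1, chr2:24336710-24336879 on the plus strand for Il1rn, and chr3:92438760-92438929 on the minus strand for Sprr1b.
Cxcl1: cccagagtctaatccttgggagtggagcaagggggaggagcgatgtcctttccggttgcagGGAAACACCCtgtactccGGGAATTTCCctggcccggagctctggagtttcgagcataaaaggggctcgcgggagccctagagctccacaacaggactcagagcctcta
Il1rn: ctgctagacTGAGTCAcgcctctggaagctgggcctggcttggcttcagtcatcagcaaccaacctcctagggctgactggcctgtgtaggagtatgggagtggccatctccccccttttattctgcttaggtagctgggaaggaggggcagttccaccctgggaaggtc
Sprr1b: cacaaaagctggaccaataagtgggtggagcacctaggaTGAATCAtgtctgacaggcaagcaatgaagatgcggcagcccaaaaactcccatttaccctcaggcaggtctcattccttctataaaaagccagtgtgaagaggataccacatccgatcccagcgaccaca

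The AP-1 site, bound by FOS and JUN proteins, was searched as TGANTCA, with any base at N. The match is TGAGTCA in Il1rn and TGAATCA in Sprr1b, the latter found only because the middle base was left free. The NF-kappaB site was searched as GGG, any pair of bases and TTTCC in a row. Both sites were searched on both strands. An NF-kappaB match was in 5 of the 17 cytokine promoters found (29.4%) and in 1.62% of all promoters. An AP-1 match was in 5 of the 17 (29.4%) and in 7.93% of all. Of the 12 wound gene promoters, 2 held an AP-1 match (16.7%) and none an NF-kappaB match. None of the 33 mitosis promoters held an AP-1 match and 1 an NF-kappaB match. Of the 15 immediate early promoters none held either. As above, these are matches of letters and describe lists chosen by function. Members were counted whether or not they were seen or higher in old, so the shares say nothing about the genes higher in old.

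Cxcl1, the neutrophil attractant, read 0.21 on the old, -2.61 on the young and -1.51 on the control array, 7.07-fold and 3.29-fold higher. Il1rn, the secreted antagonist of the IL-1 receptor, read -0.06, -2.68 and -1.48, 6.13-fold and 2.67-fold higher. Csf1, the macrophage growth factor, read 0.44, -1.57 and -2.99, 4.04-fold and 10.8-fold higher, and 3.01 above young on the log2 scale as the mean of its probes. The old array was the highest for all 3, and for Cxcl1 and Il1rn the control lay between old and young. Ccl27a, the skin chemokine that attracts T cells, read 5.29, 3.41 and 3.77, 3.68-fold and 2.87-fold higher, with its probes ranging from 0.33 to 1.88 against young. Cxcl12, the ligand of CXCR4, read 4.84, 3.30 and 3.03, 2.91-fold and 3.50-fold higher.

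Several classic inflammatory cytokines were not seen. Il6, Tnf, Il1a, Csf2, Ccl20 and Cxcl5 were not well above background on any of the 3 arrays, and Il1b, at -3.22, -3.98 and -3.29, was less than 2-fold apart. Cxcl10, an interferon-induced chemokine, was well above background on both young arrays and not on the old one, at least 1.11-fold below young and at least 2.10-fold below control. Of the 24 interferon response genes 20 were kept, with 9 at least 2-fold lower than young on measured values, 4 beyond both (Gbp3, Cxcl10, Irgm1 and Ifit2) and none at least 2-fold higher. All 9 were below the background flag on the old array, and none was beyond both at its bounds. The median of the list was -0.36, and -0.17 at bounds; it was 0.16 over the genes well above background on both arrays. Stat3, the transcription factor downstream of IL-6 family receptors, read 5.30, 4.21 and 4.79, 2.13-fold above young and 1.42-fold above control. Pim1, a kinase induced through it, read -1.13, -2.48 and -3.32, 2.55-fold and 4.55-fold higher. Over the 18 JAK-STAT pathway genes kept, 10 read higher and 8 lower than young, with a median of 0.15 (-0.08 against control). At least 2-fold higher than young were 2 and lower 1, beside 9.9% and 10.1% over all genes.

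Immediate early genes, which respond to growth factors, wounding and the dissociation of tissue, followed the same direction. Of 19 genes, 14 read higher, with a median of 0.39 (0.70 against control). At least 2-fold higher were 3, all beyond both, and at least 2-fold lower was 1, beside 9.9% and 10.1% over all genes. Fosb read 4.34 on the old, 2.98 on the young and 0.32 on the control array, Junb -0.82, -1.96 and -3.07, and Ier3 1.19, -0.17 and -1.06. All 3 lay 2.20-fold to 2.56-fold above young and 4.76-fold to 16.1-fold above control. Fos, at 2.92, 1.95 and 0.01, was 1.96-fold above young and 7.52-fold above control. Fosl1, the FOS-family member of migrating keratinocytes, was the exception: it was not well above background on the old array and at least 9.92-fold below young, but at least 1.74-fold below control. The control was lower than the young array by a median of -0.60 over this list, with 6 genes at least 2-fold lower.

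Markers of IFE moved with these groups. Of 10, all well above background on the 3 arrays, 8 read higher and 2 lower in old than in young, with a median of 0.57 (1.15 against control). Their summed level on a linear scale, with the array's 75th percentile as 1, was 58.5 on the old, 35.5 on the young and 31.0 on the control array. Krt77, a suprabasal keratin, read 3.50, 2.27 and 2.15, and Sprr1a, another cornified envelope precursor, 1.37, -0.39 and -0.08; these 2 were beyond both. Krt1 (4.20, 3.68 and 2.56) and Krt10 (4.24, 3.45 and 3.48), the defining suprabasal keratins, were present on all 3 arrays and less than 2-fold apart between old and young. Ly6a, the marker sorted against, was 1.54-fold above young and 2.89-fold above control. Their part in the wound, cytokine and immediate early differences was not tested.

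Epidermal differentiation genes as a whole were not displaced by as much. Of 25 kept, 16 read higher and 9 lower than young, with a median of 0.17 (0.51 against control). Of these, 3 were at least 2-fold higher and 2 lower, beside 9.9% and 10.1% over all genes. The 3 beyond both were Sprr1a, Sprr1b and Grhl3, a transcription factor of barrier repair, at -2.08 on the old and -3.78 on the young array and not well above background on the control. Filaggrin (Flg) read 5.08, 6.25 and 2.81, between the young references. Upper follicle and junctional zone genes had a median of 0.38 (0.43 against control) over 11 kept. Gata6, a factor of the sebaceous duct lineage, read 0.18 on the old and -2.76 on the young array, 7.70-fold higher, and was at least 29.5-fold above the control, where it was not well above background. Cst6, a cysteine protease inhibitor of cornifying cells, read 2.50, 0.83 and 0.63, 3.19-fold and 3.66-fold higher.

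Markers of other cell types differed in direction from list to list. T cell markers numbered 7 kept of 10 on the array, 5 higher and 2 lower, with a median of 0.33, and their summed level was 6.5 on the old, 7.8 on the young and 4.6 on the control array. Cd3e, of the T cell receptor complex, read -1.53, -1.38 and -1.53, while Lat, the adaptor of that receptor, read -0.67, -2.75 and -3.03 and was beyond both. Neutrophil markers were kept for 4 of 12 and all 4 read higher, with a median of 1.65 (1.14 against control) and a summed level of 141.3, 139.8 and 124.8, nearly all of it from Csf3r at 7.13, 7.12 and 6.96. S100a9, Cxcr2, the receptor of CXCL1 (at least 3.15-fold and 4.66-fold higher), and Camp, the cathelicidin peptide (-1.03, -3.14 and -2.97), were beyond both. The granule proteins Mpo, Ltf and Ngp and the surface marker Ly6g, which define neutrophils, were not well above background on any of the 3 arrays. The part of the neutrophil markers in the wound and cytokine differences was not tested.

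Langerhans and myeloid markers were kept for 11 of 13, 5 higher and 6 lower, with a median of -0.54 against young, -0.05 at bounds and -0.04 against control. The class II genes H2-Ab1 (-1.78, -0.59 and -0.11) and H2-Aa, and the adaptor Tyrobp, were beyond both in the lower direction, the latter 2 not well above background on the old array. At bounds only H2-Ab1 stayed beyond both. The summed level of these markers was 36.7 on the old, 29.6 on the young and 25.6 on the control array. Fibroblast markers had a median of -0.58 (-0.32 at bounds), with Dcn and Vcan at least 2-fold below young but not below control by 2-fold. Melanocyte (median -0.12), endothelial (0.53), muscle (0.54), erythroid (0.66), adipocyte (0.12), Schwann (-0.48), Merkel (0.35), mast (0.63) and B cell (0.27) marker lists held 1 to 6 genes kept each, and at bounds the endothelial and B cell medians were 0.44 and 0.00. Of these 9 lists, Acta1 and Ckm of muscle, Plin1 of adipocytes and Cd79a of B cells were beyond both in the higher direction. Mlana of melanocytes was beyond both in the lower direction on measured values only. It was not well above background on the old array and not beyond both at its bound. Transcripts of the Y chromosome (Ddx3y, Eif2s3y, Kdm5d and Uty) were well above background on all 3 arrays. The remaining transcript of the 5 sex-linked ones listed was so on the young and control arrays and not on the old one.

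Bulge stem cell genes went both ways. Of 23 kept, 11 read higher and 12 lower than young, with a median of -0.03, while against the control the median was -0.46, with 16 lower. Against young, 3 were at least 2-fold higher and 3 lower, beside 9.9% and 10.1% over all genes. The bulge keratin Krt15 read 5.93 on the old, 5.84 on the young and 5.99 on the control array. Lgr5, the R-spondin receptor of cycling follicle stem cells, read 4.22, 4.10 and 4.73, and Lhx2, a bulge transcription factor, 5.80, 6.15 and 6.40. Sox9 read 4.43, 4.73 and 5.66 and Nfatc1, which keeps bulge cells quiescent, 5.02, 4.78 and 5.37. The old level lay within 2-fold of the young level for all 5.

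The 5 bulge genes beyond both references split in direction. Fgf18, which holds follicles in telogen, read 0.49 on the old, -2.65 on the young and -4.19 on the control array, 8.86-fold and 25.6-fold higher, with a second probe at 2.63 against young on the log2 scale. Krt24, a bulge keratin, read 3.24, 2.00 and 1.26, 2.35-fold and 3.94-fold higher. Npnt, nephronectin, the bulge matrix protein to which the arrector pili muscle attaches, read 1.33, 3.36 and 3.50, 4.07-fold and 4.49-fold lower. Tcf7l1 (TCF3), a repressor of Wnt targets in the bulge, read -2.70, -1.13 and 0.63, and Ltbp1, which binds latent TGF-beta, 1.33, 2.68 and 2.81. For these 3 the old array was the lowest.

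Hair germ and lineage factors were mixed, with 6 of 14 higher and 8 lower (median -0.06, 0.51 against control). Lef1, the partner of beta-catenin in the hair lineage, read -1.93 on the old and -3.72 on the young array, 3.47-fold higher, and was at least 6.85-fold above the control. Shh was not well above background on any of the 3 arrays.

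In the Wnt pathway the ligands (median 0.12 over 15), the receptors and coreceptors (0.02 over 15), the secreted antagonists (-0.10 over 8) and the feedback targets (0.18 over 10) had medians near that of all genes. Wnt2b, a ligand, read -3.36 on the old, -1.97 on the young and -1.80 on the control array, 2.62-fold and 2.93-fold lower. Ryk, a coreceptor, was 2.22-fold and 2.14-fold lower, and the receptor Fzd4, well above background on the old array only, at least 2.42-fold and 2.84-fold higher. Sfrp2, a secreted Wnt inhibitor, read 0.53 on the old and -2.09 on the control array and was not well above background on the young one, so old was at least 32.1-fold above young and 6.16-fold above control. Sostdc1, which blocks both Wnt and BMP, read 4.08, 5.26 and 5.50, 2.26-fold and 2.67-fold lower.

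All 5 BMP targets kept read lower in old than in young, by less than 2-fold (median -0.19, -0.46 against control); Id1 read 0.39 on the old, 0.44 on the young and 2.34 on the control array. Among 20 BMP ligands, receptors and antagonists (median 0.12), the ligand Bmp3, seen on the old array only, and the antagonist Chrdl1 (-2.44, -3.84 and -3.88) were beyond both in the higher direction. TGF-beta pathway genes had a median of -0.09 over 18. Smad2, the signal transducer, read 0.78, 1.81 and 2.11, 2.04-fold and 2.52-fold lower. Hey1, a target of Notch, was not well above background on the old array and at least 3.47-fold and 3.61-fold lower, among 15 Notch pathway genes with a median of 0.04. Fgf18 was the only one of 11 fibroblast growth factors and receptors kept that was at least 2-fold apart from young (median 0.23).

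Hedgehog pathway genes read lower in 10 of 13, with a median of -0.32 (-0.70 against control). Of the 13, 3 were at least 2-fold lower and none at least 2-fold higher, beside 10.1% and 9.9% over all genes. Hhip, the membrane antagonist that is itself a target of the pathway, read -3.31 on the old, -0.45 on the young and -0.52 on the control array, 7.23-fold and 6.87-fold lower, and its second probe gave -2.40 against young. Dhh, a ligand, was not well above background on the old array and at least 4.62-fold and 5.24-fold lower. The young references agreed closely for both genes. The other targets Gli1 (2.83 on the old and 3.35 on the young array) and Ptch1 (1.97 and 2.02) were less than 2-fold apart, and Gli2, the activator, at 1.28, 2.32 and 2.04, was 2.06-fold below young and 1.69-fold below control.

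None of the 19 hemidesmosome and basement membrane genes kept was beyond both references; the median was 0.16 against young and -0.23 against control. Lamb1, a laminin chain, read -0.28 on the old, 1.64 on the young and 0.51 on the control array, and was the only one at least 2-fold apart from young. Col7a1, the anchoring fibril collagen, read 5.09, 4.48 and 4.56. Proteases that may act on COL17A1 and their inhibitors had a median of 0.26 over 12. Plau, urokinase (2.46, 1.08 and 2.06), Mmp2 (-0.46, -1.76 and -1.05) and the elastase inhibitor Serpinb1a (1.44, 0.06 and 0.93) were at least 2-fold above young but not above control.

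Gene families taken by name are set beside all genes, of which 5.9% were beyond both references in the higher and 3.7% in the lower direction. At least 2-fold apart from young were 9.9% in the higher and 10.1% in the lower direction. Of 40 keratins kept, 12 were at least 2-fold higher than young and 3 lower, and 10 were beyond both in the higher direction and 1 in the lower; the 10 included Krt80, of differentiating epithelia (3.03 on the old, 1.95 on the young and 1.95 on the control array), and Krt23 (0.31, -0.96 and -1.17), and the lower one was Krt19, a bulge keratin, not well above background on the old array and at least 2.70-fold and 1.63-fold lower. Of 31 collagens, 5 were beyond both in the lower direction and 1 in the higher. Col5a1, of fibrillar collagen V, read 2.26, 3.68 and 4.08, Col4a6, of basement membrane collagen IV, 0.16, 1.21 and 2.41, and Col14a1, which binds fibrils, -3.05, -1.03 and -0.57. Of 38 serpins, 6 were beyond both in the higher direction and 1 in the lower; Serpina3g, an inhibitor of proteases induced in inflammation, read 1.11, -1.65 and -0.94, Serpina3n -1.68, -3.77 and -4.04, and Serping1, the C1 inhibitor, 0.53, -1.26 and -1.47.

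HOX genes, which hold positional identity, had 4 of 32 beyond both in the higher direction (5.9% over all genes) and none in the lower, with a median of 0.06, among them Hoxc8 (0.67, -0.71 and -1.13) and Hoxc9 (-0.97, -2.65 and -2.83). Cytosolic ribosomal protein genes had a median of 0.03 over 79, between -0.15 and 0.11 under the other scalings, with none 2-fold apart but for 1 lower with array median scaling. Zinc finger genes named Zfp read lower, with 55 of 335 at least 2-fold lower and 20 higher, beside 10.1% and 9.9% over all genes. Their median was -0.23, and -0.37 to -0.14 under the 5 other scalings. Olfactory receptor genes, best known from the nose, had 52 of 227 at least 2-fold higher than young (9.9% over all genes) and 26 lower (10.1%). Beyond both were 40 in the higher direction (5.9% over all genes) and 3 in the lower (3.7%). Of the 227, 122 were well above background on both the old and the young array. Vomeronasal receptor genes had no such direction against young, with a median of -0.06. Of 60, 12 were at least 2-fold higher and 16 lower, beside 9.9% and 10.1% over all genes. Beyond both were 9 in the higher direction and 1 in the lower, beside 5.9% and 3.7%. Under the 5 other scalings the medians of keratins, serpins and olfactory receptors against young stayed above 0 and that of collagens below it, while the HOX median turned to -0.07 with array median scaling and -0.02 with quantile normalization.

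Ranked by the smaller of the differences from young and control, 12 named genes well above background on all 3 arrays stood highest in old. Sncg, gamma-synuclein (mm9 chromosome 14), read 0.88 on the old, -2.29 on the young and -2.39 on the control array, 9.01-fold and 9.69-fold higher, and Fgf18 followed. Dtx4, a Deltex protein of the Notch pathway, read 1.75, -1.17 and -1.32, 7.53-fold and 8.35-fold higher. Gas7, a growth-arrest-specific protein, read 2.84, -0.15 and 0.23, with its second probe at 2.03 on the log2 scale against young. The young references lay less than 2-fold apart for Sncg, Dtx4 and Gas7. Sectm1b, a secreted immune protein, was 12.9-fold and 7.35-fold higher, Tmem255a 6.98-fold and 25.6-fold, with a second probe at 0.98 on the log2 scale against young, and Gstt1, a glutathione transferase, 5.85-fold and 8.51-fold. Lmntd2, Pcdhgb1, Gng11, Mdga1 and Zfp870 were 6.08-fold to 8.41-fold above young and 5.81-fold to 7.42-fold above control.

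Of the 12 lowest by the same rank 11 are described, beginning with Slc16a7, the monocarboxylate transporter MCT2, at -1.33 on the old, 1.77 on the young and 2.49 on the control array, 8.61-fold and 14.2-fold lower; its 6 probes ranged from -3.11 to 0.80 on the log2 scale against young, with a mean of -0.59. Lrrc8b, a subunit of volume-regulated anion channels, read -1.47, 1.51 and 1.81, 7.89-fold and 9.76-fold lower. Rpgrip1l, a protein of the ciliary transition zone, read -1.22, 1.75 and 1.94, 7.84-fold and 8.91-fold lower. In these genes the young references lay less than 2-fold apart. Nsg1, a neuronal endosome protein, read -0.19, 2.20 and 2.17, and Lrp8, a receptor of reelin, -2.68, -0.07 and 0.01. Hhip, described above, was also among them, and Nanos1, Peg3os, Zfp407, Setbp1 and Pcp4 were 4.80-fold to 9.32-fold below young and 5.52-fold to 7.07-fold below control, with Zfp407 also having a probe of opposite sign and a probe mean of -0.96 against young.

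**Figure D3:**
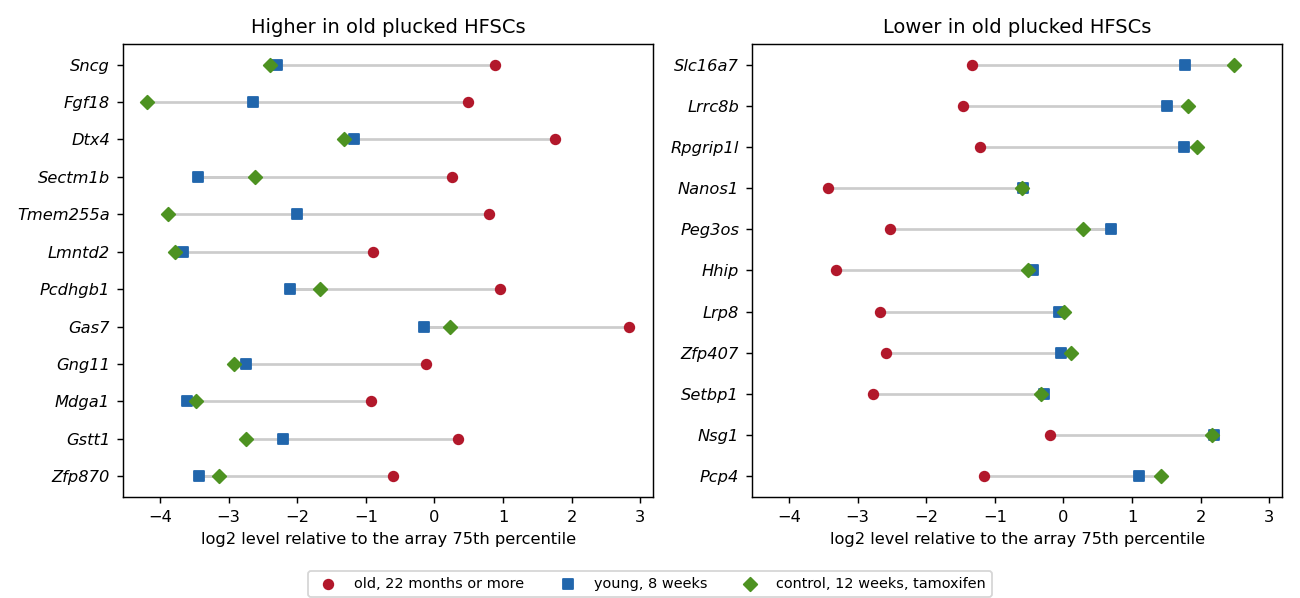
Log2 level relative to the array's 75th percentile (horizontal axis) of the 12 genes highest and 11 of the 12 lowest in old plucked HFSCs (red circles) relative to both young (blue squares) and control (green diamonds), each point 1 array. Sncg reads 0.88 on the old array against -2.29 and -2.39, and Nsg1 -0.19 against 2.20 and 2.17; for Fgf18 and Tmem255a the references lie further apart.

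Among genes seen on the old array only, Olfr566 read 7.31 from its 1 probe and was at least 3533-fold above young and at least 4133-fold above control. On the other 9 arrays that probe lay between -6.29 and -1.90. Next, each fold a lower bound, were Fsip2, a sperm fibrous sheath protein (at least 63.4-fold above young), and Hrh2, a histamine receptor (61.2-fold). Sybu, syntabulin (37.5-fold), Chst9, a sulfotransferase (33.7-fold), and Rasal1, a RAS GTPase activator (32.3-fold), followed. Hrh2 (-3.25) and Chst9 (-1.02) were also well above background on the old unplucked array, and not on the young unplucked one. Seen on both young arrays and not on the old one were Fam184b, at least 15.2-fold below young and 18.7-fold below control, and Sulf1, the heparan sulfate 6-O-endosulfatase that tunes growth factor signals, at least 5.87-fold and 5.67-fold lower. Gdap10, Zfp52, Lhpp and Fbxo48 were at least 4.70-fold to 5.38-fold below young, although the mean over the probes of Lhpp was -1.54 on the log2 scale.

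The same lists were read on the arrays of unplucked HFSCs, total epidermis and IFE, each with 1 old and 1 young array. For mitosis genes the median old minus young difference was -0.83 in plucked HFSCs, 0.02 in unplucked HFSCs, 1.00 in total epidermis and 0.76 in IFE. In unplucked HFSCs the members were spread in both directions, 8 at least 2-fold higher and 8 lower of 33 kept. Over all 23885 genes kept there, 4411 were at least 2-fold higher and 2760 lower. Ttk and Aurkb were not well above background on either array of unplucked HFSCs. In total epidermis 17 of 35 and in IFE 13 of 38 were at least 2-fold higher and none lower. Over all genes kept, 1263 of 24259 in total epidermis and 1986 of 23222 in IFE were at least 2-fold higher, and 1674 and 832 lower. For the wound list the medians were 0.77 in plucked HFSCs, -0.76 in unplucked HFSCs, -0.13 in total epidermis and -0.54 in IFE. Krt16 read -0.07 on the old and 2.51 on the young unplucked array, the reverse of the plucked arrays, and Krt6a 1.95 and 3.20. The cytokine medians were 0.72, -0.08, -0.01 and 0.00. The immediate early medians were 0.39, 0.64, 0.55 and 0.26 in the same order, so that list read higher in old in each sample and not only after plucking. In unplucked HFSCs 6 of 18 immediate early genes and in total epidermis 8 of 19 were at least 2-fold higher, and none lower. Cxcl12, at 6.23 on the old and 5.34 on the young unplucked array, and Ccl27a, at 6.44 and 5.74, were higher in old there too, by less than 2-fold.

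**Figure D4:**
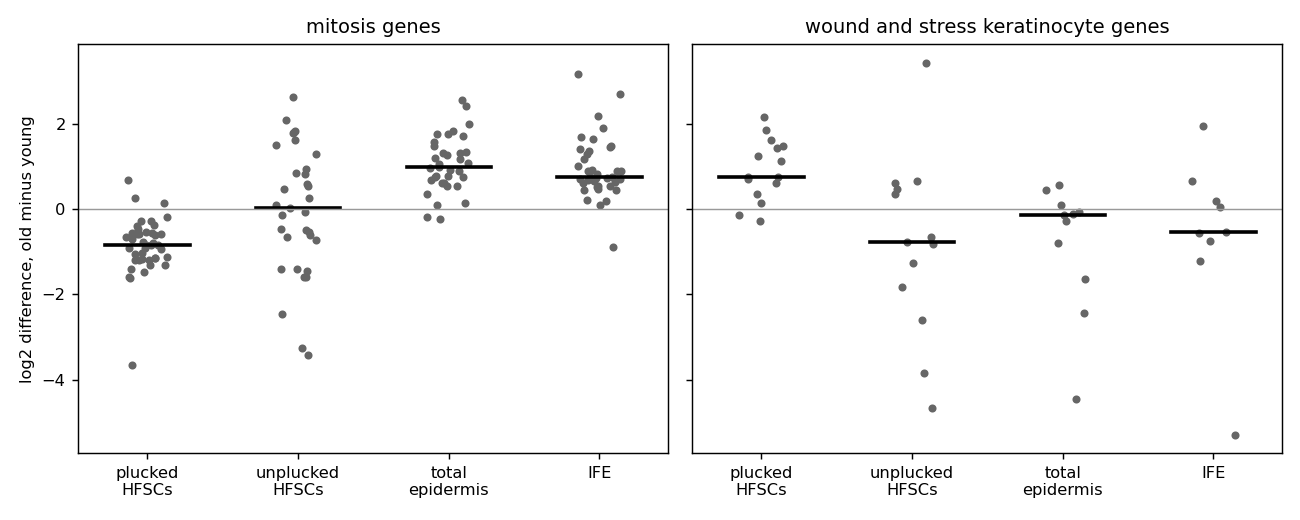
Log2 difference of old minus young (vertical axis) for the mitosis genes (left) and the wound and stress keratinocyte genes (right) in plucked HFSCs, unplucked HFSCs, total epidermis and IFE; each point is a gene well above background on either array, drawn at its measured value, and the bar is the median. The mitosis median is -0.83 in plucked HFSCs and 1.00 in total epidermis, and the wound median 0.77 in plucked and -0.76 in unplucked HFSCs.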

How the data were processed

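Each sample was hybridised to 1 one-colour array. The authors deposited scanner output holding an intensity per spot, background-subtracted and detrended with Agilent Feature Extraction 10.7.3.1 per the file headers. Their own processed log2 values were also deposited by the authors; its columns followed the scanner values centred per probe (r 0.9999 for the young plucked array, whose median there was -0.14), while its scale and centring are not stated in the sources used here. Per the labels' protocols, nanogram amounts of RNA were amplified, which can add spread to dim genes.

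Control and outlier spots were left out (129 to 184 outlier spots on the 3 arrays used most), and none was saturated. From the log2 of the processed intensity the 75th percentile of its array was subtracted, and spots of a probe were averaged. Each gene was taken from the probe whose level, averaged over the 12 arrays, was highest; of 7392 genes with several probes kept, the probes of 47.8% disagreed in the sign of old minus young. Probe names came from RefSeq by accession for 28026 of 55681 probes, and array positions are on mm9. Named genes were the 12 highest and 12 lowest beyond both references, 6 each way by bound, and list members beyond both or most apart; a few of them are not reported here. The members and the 48 lists (671 of 676 symbols on the array) were chosen with earlier results of these data known. The number of arrays limits the precision. The code that calls 2-fold differences was run on simulated data. Shifts larger than 2-fold were planted in bright genes, with less noise than lay between the young references and the same background flags on each array. That run checks the code and does not measure how reliable the calls are. Versions were R 4.3.3, limma 3.58.1, data.table (1.17.8), Python 3.11.15, pandas 2.3.3, numpy 2.4.6 and matplotlib 3.10.9.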

Additional observations from a re-analysis of the deposited data

Results flagged for a closer look

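Several medians and genes had opposite signs of old minus young in plucked HFSCs and in another cell sample of the series; each side is 1 array against 1 array, and the difference between them was not tested. All values are log2 differences. Mitosis genes were at -0.83 in plucked HFSCs, 1.00 in total epidermis and 0.76 in IFE. Repair genes were at -0.52, against 0.45 in unplucked HFSCs, 0.57 in total epidermis and 0.66 in IFE. CDK inhibitors were at -0.46, against 0.43 in unplucked HFSCs.

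Wound and stress keratinocyte genes were at 0.77, against -0.76 in unplucked HFSCs and -0.54 in IFE, and the EGF family at 0.41 against -0.85 in unplucked HFSCs. IFE markers were at 0.57, against -0.56 in total epidermis and -0.45 in IFE itself. Upper follicle genes were at 0.38 against -0.38, and Langerhans and myeloid markers at -0.54 against 0.99, both in total epidermis. The sorting markers with Col17a1 were at 0.41 against -0.59 in unplucked HFSCs. Against the control their median in plucked HFSCs was -0.02.

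Among single genes, Fgf18 was at 3.15 in plucked and -1.62 in unplucked HFSCs, Gas7 at 2.98 and -1.62, and Gstt1 at 2.55 and -1.04. Pcp4 was at -2.26 and 3.11 and Sulf1 at -3.13 and 3.22. Neither was well above background on the young unplucked array, and Sulf1 was not on the old plucked array, where its bound is -2.55. Other ranked genes had the same sign in plucked and unplucked HFSCs, such as Hhip at -2.85 and -2.08, Peg3os at -3.22 and -2.04, and Gng11 at 2.60 and 1.48.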

How the results depend on the processing

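No paired analysis was possible because each group held 1 array and no replicate numbers joined samples. The gene counts are given in the order old higher and lower than young, old higher and lower than control, control higher and lower than young, and old higher and lower than both. With normexp and quantile normalization they were 581, 474, 1021, 951, 587, 592, 356 and 118, and with a 4-fold threshold 726, 632, 1259, 777, 708, 903, 485 and 173. With both arrays well above background they were 1499, 1321, 2593, 1982, 1484, 1965, 739 and 506. Without a filter 3918 genes were higher than young, 5528 higher than control and 2335 higher than both. With array median scaling 5232 were lower than control and 1504 lower than both; it moved the median of all genes by -0.14 and the share of calls against young that were higher from 49.6% to 39.0%. With the control as the reference 3621 were higher.

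The replication median was -0.53 with normexp and -0.81 with median scaling, and the mitosis median -0.58, -0.96 and, with cyclic loess over the 4 plucked arrays, -0.72. The wound median was 1.79 against the control and 1.36 against the mean of both references. The cytokine median was 0.43 with normexp, 0.47 without a filter and 1.09 against the control. Langerhans markers turned to 0.08 with both arrays well above background and 0.06 without a filter, mast markers to -0.04 against the control and fibroblast markers to 0.18 without a filter. The cause was not tested, except that a filter or threshold changes which genes count. All 120 single genes followed kept their sign in every setting, which the choice of genes partly fixes. Of 48 list medians, 21 had both signs over all settings, among them CDK inhibitors (-0.75 to 0.07) and interferon genes (-0.59 to 0.16).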

Other observations

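Further lists showed smaller or mixed differences. Glycolysis and lactate genes read lower in 15 of 19 kept, with a median of -0.22. Slc2a3, the glucose transporter GLUT3, was beyond both references in the lower direction on measured values. It was not well above background on the old array and not beyond both at its bound. Heat shock and chaperone genes read lower in 8 of 10, with a median of -0.31 and none 2-fold apart. Targets of p53 had a median of -0.26 over 18, and Pmaip1 (NOXA), a promoter of apoptosis, read -1.72 on the old, -0.69 on the young and 0.44 on the control array. JAK-STAT pathway genes had a median of 0.15 over 18, and -0.08 against control.

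Sebaceous gland genes had a median of -0.24 over 13 kept and went both ways. Scd1, a fatty acid desaturase, read 2.18 on the old, 3.42 on the young and 3.30 on the control array. Awat2, a wax ester enzyme, was not well above background on the old array, at least 1.25-fold below young and at least 12.8-fold below control. Fasn, fatty acid synthase, read -2.24 on the old and -3.62 on the young array. On the plucked array of the Col17a1 conditional knockout, which is 12 weeks old and tamoxifen-treated, Ttk read 0.86 and Sgo1 3.37, above the old level, and Ccl27a 3.76 and Cxcl12 2.75, below it. Other genes lay nearer the old level than the young or control level on that array, such as Hhip at -2.31 and Gng11 at -0.89. These are single picked genes, and no list was summarised for the knockout.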
